A study of Mus musculus with 54 samples.

Results

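The cells described here are mouse bone marrow myeloid progenitors sorted through a gate that included the surface protein CD41, divided by how much platelet factor 4 mRNA each cell held. They were chosen by their measured Pf4: of 380 wells of the gate recorded with 1 cell, 336 held at least 500 unique molecular identifiers (UMIs, each standing for 1 captured mRNA molecule), and the share of a cell's UMIs that came from Pf4 was set against the median share of those 336 cells. The 168 cells above the median are called Pf4-high, 82 from pool 1 and 86 from pool 2, and the 168 at or below it Pf4-low, 85 and 83. They are 336 of 8399 cells of the series that pass the same minimum. The series profiled single progenitors by MARS-seq, a plate-based method that counts the 3' ends of polyadenylated mRNA. All 336 cells came from untreated wild type bone marrow on a C57BL/6 background, from animals 6 to 8 weeks old. Bone marrow was enriched for cKit with magnetic beads, and the sort took lineage-negative (Lin-) cKit+ Sca1- CD34+ FcgR(low) CD41+ cells. The well table gives 1 mouse identifier, 1 plate and 1 sequencing batch for the gate, and its 2 amplification pools of 192 wells each reuse the same 192 cell barcodes under different pool barcodes, with 0 well identifiers in common. A difference seen in both pools was therefore repeated across amplifications and not across animals, and the p-values below measure no spread between animals. The gene test works on sums over cells, so its p-values and standard errors do not measure directly how unevenly a transcript is spread among cells. With so few sums, the gene test in the gate draws its spread mostly from all genes together.

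Pf4 encodes a chemokine that megakaryocytes pack into alpha granules and that platelets release on activation. Megakaryocytes arise from progenitors that share many transcription factors with the erythroid lineage, and the early steps are marked by surface integrin CD41, the product of Itga2b, before the cells become large and polyploid. CD41 also appears on progenitors that have not chosen the megakaryocyte lineage, so a CD41 gate can hold cells at several stages.

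The stretches of 250 bases before the start site of 4 genes that the results turn on are shown to give the sequence context of the genes that move with and against Pf4, with Pf4 and the platelet glycoprotein genes Gp9 and Itga2b on one side and the granulocyte gene Mpo on the other. They are RefSeq promoters on GRCm38.p6, printed in the direction of the gene. Capitals mark the letters GATAA, the core read by GATA factors, and AGGAAG, a sequence around the core read by ETS factors such as FLI1 and PU.1, on either strand.
Pf4, chr5:90772185-90772434, plus strand: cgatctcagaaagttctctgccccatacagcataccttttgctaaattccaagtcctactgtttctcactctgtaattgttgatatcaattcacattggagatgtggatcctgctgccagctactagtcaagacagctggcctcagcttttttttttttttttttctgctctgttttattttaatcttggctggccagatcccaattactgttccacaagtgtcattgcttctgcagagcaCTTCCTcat
Gp9, chr6:87777820-87778069, plus strand: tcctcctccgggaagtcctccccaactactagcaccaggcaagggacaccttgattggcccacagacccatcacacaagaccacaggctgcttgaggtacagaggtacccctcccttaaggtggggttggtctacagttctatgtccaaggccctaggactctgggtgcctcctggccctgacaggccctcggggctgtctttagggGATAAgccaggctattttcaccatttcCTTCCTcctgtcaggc
Itga2b, chr11:102469884-102470133, minus strand: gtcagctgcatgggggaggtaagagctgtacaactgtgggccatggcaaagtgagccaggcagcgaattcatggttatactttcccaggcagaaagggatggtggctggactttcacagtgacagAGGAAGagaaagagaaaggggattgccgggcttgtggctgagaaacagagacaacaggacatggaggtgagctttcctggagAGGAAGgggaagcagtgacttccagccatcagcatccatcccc
Mpo, chr11:87793534-87793783, plus strand: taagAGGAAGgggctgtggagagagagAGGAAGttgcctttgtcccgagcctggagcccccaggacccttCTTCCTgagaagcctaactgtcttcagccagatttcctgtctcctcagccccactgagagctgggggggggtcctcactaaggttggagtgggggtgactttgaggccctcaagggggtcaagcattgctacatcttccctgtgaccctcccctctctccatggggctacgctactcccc
The AGGAAG letters begin 9 bases before the start in Pf4, 16 in Gp9, 43 and 125 in Itga2b, and 180, 223 and 246 in Mpo. Only the Gp9 stretch of these 4 holds GATAA, 43 bases before the start, and the matches do not overlap. Such short strings are common: of all 32851 promoters in the table, 22.6% hold GATAA and 29.5% hold AGGAAG over the same length. For the 3741 genes tested in the comparison below, 2779 matched the table with 3595 promoters, and the shares were 15.0% and 26.8%. Of the 61 genes found higher in Pf4-high cells 50 matched the table with 66 promoters, of which 24.2% hold GATAA and 34.8% AGGAAG. For the 85 genes found lower, 64 matched with 89 promoters, and the shares were 12.4% and 44.9%. A match is a description of the letters and not a binding site.

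By construction the sets differ in Pf4, so its values are given with no test. Pf4-high cells held from 2 to 133 Pf4 UMIs, with a median of 26.5, or 0.282% to 3.08% of a cell's UMIs. Pf4-low cells held from 0 to 11, with a median of 1, and 65 of the 168 held 0. In the sums over cells, Pf4 was at 13450 and 13572 CPM (UMIs per 1000000 UMIs, scaled by TMM, a correction for differences in composition) in Pf4-high cells of pools 1 and 2 and at 862 and 786 CPM in Pf4-low cells. The share rose without a step through the cut. The nearest Pf4-low cell had 5 Pf4 of 1780 UMIs (0.281%) and the nearest Pf4-high cell 4 of 1417 (0.282%), and for 161 of the 336 cells the exact 95% binomial interval of the share, which covers counting error only, holds the cut. Whether the sets hold different cell types was not tested. The median share was nearly the same in both pools, at 0.276% and 0.300%.

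**Figure D1:**
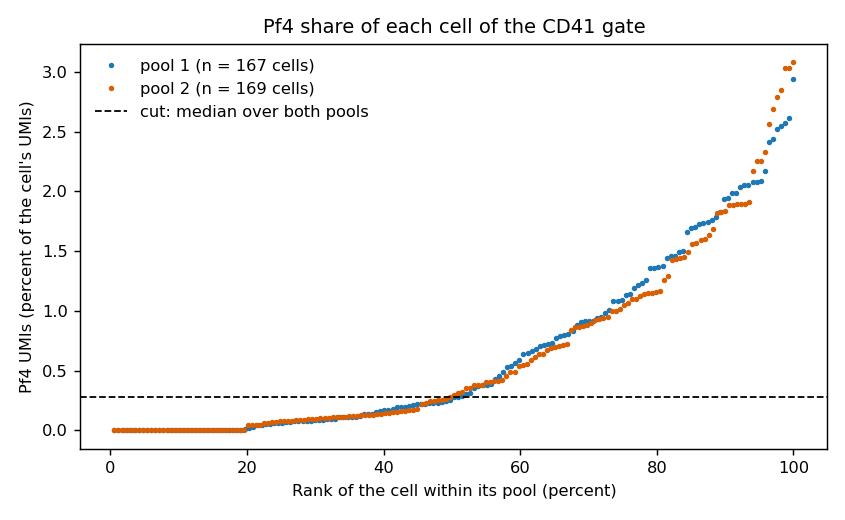
Pf4 UMIs as a percent of each cell's UMIs (vertical axis) against the rank of the cell within its pool in percent (horizontal axis), for the 167 cells of pool 1 and the 169 of pool 2; the dashed line is the cut. The curves of the pools run together from 0 to about 3% and cross the cut without a gap.

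Pf4-high cells were also the deeper cells. Their median was 2436.5 UMIs in pool 1 and 2361.5 in pool 2, against 1532 and 1306 in Pf4-low cells, and the sums held 221885 and 230370 UMIs against 153044 and 125019. A median of 1364.5 genes was detected per Pf4-high cell and 923.5 per Pf4-low cell, but at 500 UMIs per cell the medians were 396.5 and 396. The 4 wells recorded without a cell held 82 UMIs on average, which is 3.05% of the mean UMIs of a Pf4-high cell and 4.95% of that of a Pf4-low cell. If free RNA at that level had the pool's own composition, it would account for 119.9 of the 230 Pf4 UMIs of the Pf4-low cells. CD41 mRNA itself was detected in 92.3% of Pf4-high and 74.4% of Pf4-low cells (51.2% and 45.2% at 500 UMIs per cell). For the other gate proteins, Kit (a row joined with AK047175) had 44 UMIs and Cd34 had 50 over all 336 cells, Fcgr3 had 4, and Ly6a and Cd3e had 0.

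Across all genes, many platelet genes other than Pf4 were higher in Pf4-high cells and most granulocyte genes tested were lower. Some erythroid and early progenitor genes were lower too, but these lists did not move as a whole. The erythroid list had a median log2 ratio of -0.02 with 4 of 9 members above 0. For the early progenitor list led by Apoe it was 0.06, with 6 of 12 above 0. With edgeR's quasi-likelihood test on the 4 sums, with the pool as a block and Benjamini-Hochberg adjusted p under 0.05 as the threshold, 62 of 3741 genes tested were higher (1.66%), which is 61 besides Pf4, and 85 were lower (2.27%). Without adjustment 461 passed p under 0.05. By size alone, at 2-fold or more between the sums of both pools with at least 100 CPM in the higher set, 62 of 2401 genes were higher (2.58%) and 52 lower (2.17%). DESeq2 was far more sparing, with 6 genes higher and 10 lower (87 without adjustment), all of them among edgeR's calls. Besides Pf4 these were Cd9, Itgb3, Rap1b, Serpine2 and Vwf among the higher genes, and Mpo, Ctsg, Prtn3, Gpx1, Lgals1, Gm2a, Limd2, Selplg, Vim and Car2 among the lower.

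Genes for alpha granule and secreted proteins rose in 4 of 6 members tested besides Pf4 and fell in 0, with a median log2 difference (Pf4-high minus Pf4-low, here and below) of 1.34 against -0.01 over all 3740 genes other than Pf4. Of those 3740 genes, 1824 lay above 0 and 1916 below, which is the background for the counts of sign below. Vwf, which encodes von Willebrand factor, the adhesive protein that tethers platelets to damaged vessels, was at 842 and 800 CPM in Pf4-high cells of pools 1 and 2 and at 305 and 397 in Pf4-low cells. Its log2 difference was 1.24 ± 0.19 (SE; edgeR adjusted p = 3.15e-08). Serpine2, an inhibitor of thrombin and other serine proteases, was at 815 and 692 against 285 and 267 CPM (1.45 ± 0.20, adjusted p = 4.33e-10). In both genes each Pf4-high sum lay above each Pf4-low sum. Clu, which encodes the secreted chaperone clusterin, was at 197 and 283 against 77.8 and 72.9 CPM (1.63). Selp, the gene of the adhesion receptor P-selectin that alpha granules bring to the surface, was at 98.5 and 113 against 32.4 and 32.4 CPM (1.68 ± 0.51, adjusted p = 0.0328). Selp rested on 48 and 9 UMIs and lost its call when cells with at least 1000 UMIs were used (1.04, adjusted p = 0.233) or when cells were thinned to 500 UMIs before the split (0.71, adjusted p = 0.525). The remaining members were Tgfb1, at 0.14, and Srgn, the proteoglycan that holds granule content in many blood cells, at -0.29, neither past the threshold. Between the 84 cells of highest and the 84 of lowest Pf4 share, edgeR called Srgn lower (-0.52, adjusted p = 0.0128).

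Surface glycoprotein genes rose in 6 of 12 members tested and fell in 0, with a median of 0.86 and all 12 above 0. Itgb3, which encodes integrin beta 3, the partner of CD41 in the platelet fibrinogen receptor, was at 381 and 313 CPM in Pf4-high cells and at 51.8 and 72.9 in Pf4-low cells, the largest difference in this direction besides Pf4 among the genes named by rule (2.50 ± 0.32, adjusted p = 3.36e-12). It was detected in 50.0% of Pf4-high and 8.93% of Pf4-low cells, or 14.9% and 3.57% at 500 UMIs per cell. Itga2b (a row joined with GPalpha IIb and so uncertain) was at 1836 and 1897 against 1127 and 1126 CPM (0.72 ± 0.13, adjusted p = 7.75e-06). Both subunits of the receptor were thus higher in Pf4-high cells of each pool. Neither kept its call when cells were thinned to 500 UMIs before the sums. Itgb3 was then at 1.91 (edgeR adjusted p = 0.125) and Itga2b at 0.45 (0.319). DESeq2 did not call Itga2b either (adjusted p = 0.0903). Cd9, a tetraspanin of the platelet surface, was at 1661 and 1401 against 363 and 486 CPM (1.86 ± 0.17, adjusted p = 9.08e-26). Of the von Willebrand receptor complex, Gp1bb (a row joined with Cdcrel-1 and Sept5, uncertain) was at 0.98 and Gp9 at 0.72, both past the threshold, while Gp5 at 0.55 (adjusted p = 0.13) and Gp1ba at 0.91 (adjusted p = 0.31) were not. Treml1, a receptor stored in alpha granules, rose by 0.98. Esam (1.15), Pecam1 (0.80), Itgb1 (0.75) and Cd63 (0.08) did not pass.

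Receptor and signalling genes rose in 9 of 19 members tested and fell in 0, with a median of 0.83 and 18 of 19 above 0. Rap1b, the small GTPase that drives integrin activation in platelets, was at 1254 and 1170 CPM in Pf4-high cells against 609 and 575 in Pf4-low cells (1.03 ± 0.16, adjusted p = 3.89e-08). Rasgrp2, the exchange factor that loads Rap1 with GTP, was at 278 and 291 against 130 and 113 CPM (1.21 ± 0.28, adjusted p = 0.00128). The GTPase and its activator were both higher in each pool. Rgs10, a regulator of G protein signalling, was at 573 and 544 against 201 and 227 CPM (1.39 ± 0.22, adjusted p = 1.39e-07), and Gnaz, which encodes an inhibitory G protein alpha subunit, was at 1.41. Along the thromboxane pathway, the cyclooxygenase gene Ptgs1 (1.78), the thromboxane synthase gene Tbxas1 (0.91) and the receptor gene Tbxa2r (1.38) all rose, so the enzymes and the receptor were higher together. Ptgs1 was at 107 and 87.0 against 45.4 and 8.10 CPM on 44 and 8 UMIs, its difference was 3.49 without pool 1, and it lost its call with no replicate block (adjusted p = 0.0731) and with a minimum of 1000 UMIs (adjusted p = 0.0611). The ATP-gated channel gene P2rx1 (1.13) and the kinase gene Syk (0.79; a row joined with Sykb, uncertain) also rose; Syk lost its call with no replicate block (adjusted p = 0.0747) and with no filter on low counts (0.0881). The thrombin receptor gene F2r was at 340 and 309 against 201 and 186 CPM and missed the threshold (0.74, adjusted p = 0.0593), as did the adaptor gene Lat (0.71, adjusted p = 0.0619).

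Of these 19 platelet rows called higher by edgeR, 5 were also called by DESeq2 and 17 without the pool block. With each cell thinned to 500 UMIs before summing, which weights every cell alike, 12 of the 19 had enough UMIs to be tested. All 12 were above 0, and 4 were called: Cd9, Rap1b, Rgs10 and Serpine2. Besides Itgb3 and Itga2b, those not called by edgeR were Vwf (0.95, adjusted p = 0.194), Gp9 (0.72, 0.356), Gp1bb (0.35, 0.668), Treml1 (0.87, 0.304), P2rx1 (1.13, 0.298) and Tbxas1 (0.89, 0.279).

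**Figure D2:**
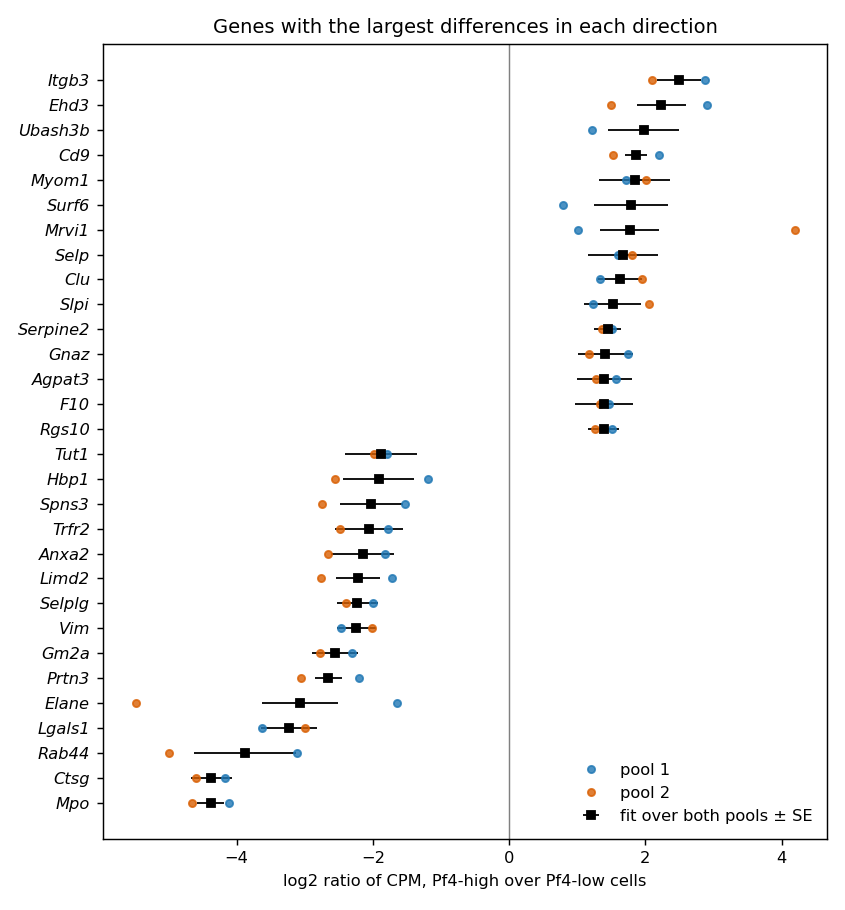
Log2 ratio of Pf4-high over Pf4-low CPM (horizontal axis) for the 15 genes of largest difference in each direction among those that met the naming rule. That rule asks for a call, at least 100 CPM in the higher set and one sign in both pools, and Pf4 is left out. Circles are the ratios in pool 1 and pool 2, squares the fitted value over both pools with its standard error. Itgb3 leads the higher genes at 2.50 and Mpo the lower at -4.38, and no pool falls on the other side of 0, which the selection rule required; for Ubash3b and Surf6 the pool 2 circle is missing because the Pf4-low sum of pool 2 held 0 UMIs.

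Genes of the cytoskeleton and membranes rose in 5 of 16 members tested and fell in 1, with a median of 0.55. Tuba8, an alpha tubulin, was at 801 and 927 CPM against 531 and 543 (0.68 ± 0.17, adjusted p = 0.00568). Tln1 (a row joined with mKIAA1027, uncertain), which encodes talin, the protein that links integrins to actin, was at 1710 and 1844 against 1050 and 1280 CPM (0.61 ± 0.13, adjusted p = 0.000443). Each of these Pf4-high sums exceeded each Pf4-low sum. Sdpr (1.16), Cttn (0.92) and the calmodulin-binding protein gene Nrgn (0.45) also rose, and Cttn lost its call with no replicate block (adjusted p = 0.0555) and with no filter on low counts (0.0516). The member that fell was Vim, the intermediate filament gene of many immature and mesenchymal cells, at 71.6 and 78.3 CPM in Pf4-high cells against 395 and 316 in Pf4-low cells (-2.24 ± 0.28, adjusted p = 1.65e-12).

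Of transcription factor genes of the lineage, 1 of 21 tested rose and 2 fell, with members on both sides of 0 and a median of 0.10. Zfpm1, which encodes the GATA1 partner FOG1, was at 801 and 748 CPM in Pf4-high cells against 531 and 478 (0.61 ± 0.18, adjusted p = 0.0215). Gata2, a factor of early progenitors, was at 421 and 418 against 538 and 770 CPM (-0.63 ± 0.19, adjusted p = 0.0275), and Myb at 85.1 and 65.2 against 143 and 194 CPM (-1.14 ± 0.36, adjusted p = 0.0365). The Gata2 sums lay further apart in pool 2, and neither gene kept its call with no replicate block (adjusted p = 0.069 for Gata2 and 0.0593 for Myb) or with no filter on low counts (0.143 and 0.125); Gata2 also lost it between the 84 cells of highest and the 84 of lowest Pf4 share (-0.35, adjusted p = 0.558). Gata1 (-0.51), Nfe2 (-0.04), Runx1 (-0.06), Tal1 (0.58) and Fli1 (1.06, adjusted p = 0.13) did not pass.

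Outside the lists, the 15 largest differences among genes that met the naming rule held further genes. Ehd3, a membrane trafficking protein, was at 291 and 183 CPM in Pf4-high cells against 38.9 and 64.8 (2.24 ± 0.36, adjusted p = 1.78e-07). It was 1.57 without pool 1 and 2.93 without pool 2, and DESeq2 did not call it (adjusted p = 0.167). Mrvi1, a substrate of cGMP-dependent kinase that restrains platelet activation, was at 143 and 148 against 71.3 and 8.10 CPM (1.77 ± 0.43, adjusted p = 0.00311), so its difference was much wider in pool 2. Without pool 1 it was 4.26 and without pool 2 it was 1.04. Ubash3b (1.98), Myom1 (1.84), Surf6 (1.79; a row joined with AK043984, uncertain), Agpat3 (1.40) and the coagulation factor X gene F10 (1.39) completed the higher genes, with Ubash3b and Surf6 resting on 8 UMIs each in Pf4-low cells, all in pool 1. Without pool 2 Ubash3b was at 1.25 and Surf6 at 0.82. Surf6 lost its call with a minimum of 1000 UMIs (adjusted p = 0.221) and with no replicate block (0.0954), as did Ubash3b with the latter (0.0546).

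Genes of neutrophils and their primary granules fell in 6 of 10 members tested and rose in 1, with a median of -2.18. Mpo, which encodes myeloperoxidase, was at 107 and 91.3 CPM in Pf4-high cells and at 1860 and 2301 in Pf4-low cells (-4.38 ± 0.20, adjusted p = 6.09e-100). The serine protease genes Ctsg (-4.37), Elane (-3.07) and Prtn3 (-2.65) were lower as well, and for all 4 each Pf4-high sum lay below each Pf4-low sum. Elane was at 26.9 and 4.35 against 84.2 and 194 CPM, so it was -1.62 without pool 2 and -5.41 without pool 1. Plac8 (-4.08) and Gstm1 (-1.71) also fell. The member that rose was Slpi, an inhibitor of neutrophil elastase, at 152 and 135 against 64.8 and 32.4 CPM (1.52 ± 0.42, adjusted p = 0.0129), and at 2.13 without pool 1. Gstm1 lost its call with no replicate block (adjusted p = 0.0685) and with no filter on low counts (0.0534). DESeq2 gave an adjusted p to 4 of the 10 members, and called 3 of the list lower and 0 higher.

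These granule transcripts were unevenly spread among the Pf4-low cells. Mpo, Prtn3, Ctsg and Elane together gave 1087 UMIs in Pf4-low cells, of which 63.7% came from 10 cells, and 23 cells held at least 10 of these UMIs. In Pf4-high cells they gave 145 UMIs and no cell held more than 4. At 500 UMIs per cell, 68 of 168 Pf4-low cells (40.5%, exact 95% interval 33.0 to 48.3) and 31 of 168 Pf4-high cells (18.5%, 12.9 to 25.2) held at least 1. By pool this was 29 of 85 and 39 of 83 Pf4-low cells against 18 of 82 and 13 of 86 Pf4-high cells. The intervals cover the sampling of cells only, and cells are not replicates. Free RNA as estimated above would come to 11.6 of the 45 Mpo UMIs of the Pf4-high cells and 11.6 of the 571 of the Pf4-low cells. When the 10 cells with most granule UMIs were left out, a choice made after their values were seen, the log2 difference from total UMIs went from -4.37 to -2.98 for Mpo, from -4.37 to -2.90 for Ctsg, from -2.63 to -1.57 for Prtn3 and from -3.10 to -1.21 for Elane.

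**Figure D3:**
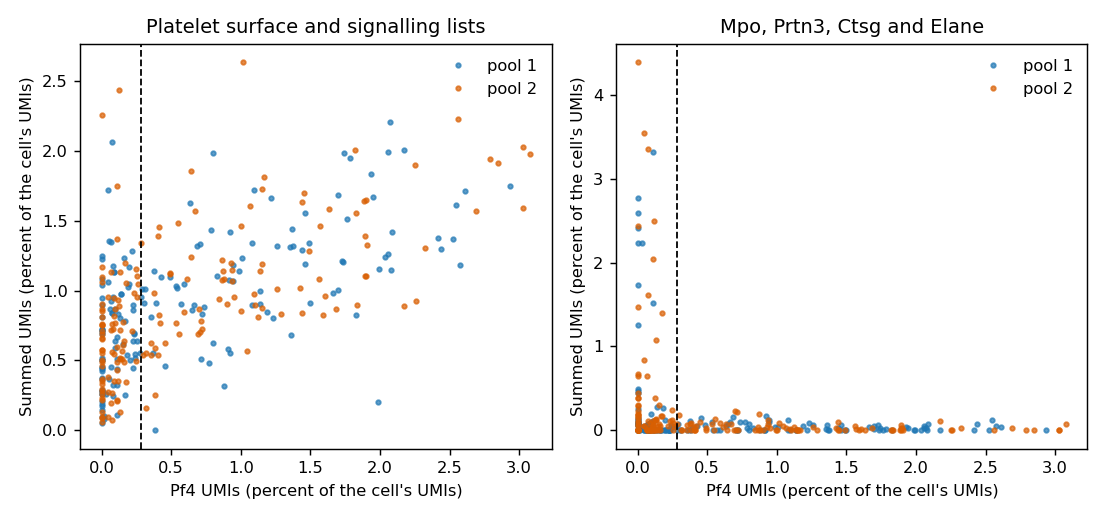
Each point is 1 of the 336 cells, with Pf4 as a percent of its UMIs on the horizontal axis and the cut as a dashed line; the vertical axis is the percent of UMIs from the platelet surface glycoprotein and receptor and signalling lists, neither of which holds Pf4 (left) or from Mpo, Prtn3, Ctsg and Elane (right). The median platelet percentage was 1.15 and 1.08 in Pf4-high cells of pools 1 and 2 and 0.641 and 0.610 in Pf4-low cells, with wide overlap between the sets, while granule percentages above 1 occur only left of the cut.

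Erythroid genes fell in 3 of 9 members tested and rose in 0, although the list's median was -0.02. Car2, carbonic anhydrase II, was at 412 and 274 CPM in Pf4-high cells against 985 and 600 in Pf4-low cells (-1.21 ± 0.19, adjusted p = 3.2e-08), and it was also called by DESeq2. Blvrb, biliverdin reductase B, fell by 1.18, and Klf1, the erythroid master factor gene, was at 13.4 and 17.4 against 90.7 and 72.9 CPM (-2.36 ± 0.67, adjusted p = 0.0184) on 7 and 23 UMIs. The other members lay on both sides of 0, from Epor at -0.76 to Aqp1 at 0.36, none past the threshold. When cells were thinned to 500 UMIs before the split, 1 of 8 members tested rose and 1 fell, with a median of 0.11. Blvrb lost its call there (-0.78, edgeR adjusted p = 0.14). DESeq2 gave an adjusted p to 6 of the 9 members, and called 1 of the list lower and 0 higher. With no filter on low counts the 26 members with a UMI had a median of -1.97, which includes genes of very few UMIs, with 9 above 0, 5 lower and 0 higher. Of 6 heme synthesis genes 1, Alad, fell (-0.97, adjusted p = 0.0359), and it lost its call with no replicate block (adjusted p = 0.0599). Globin rows had 33 UMIs in Pf4-high and 10 in Pf4-low cells, too few to be tested.

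Early progenitor genes moved in both directions. Of 12 tested members of the list led by Apoe, 2 rose and 3 fell, with a median of 0.06. Of these calls Zfpm1 and Gata2 were already counted among the transcription factor genes and Car2 among the erythroid genes. Apoe, which encodes apolipoprotein E, was at 819 and 740 CPM in Pf4-high cells against 1600 and 2528 in Pf4-low cells (-1.38 ± 0.14, adjusted p = 1.48e-20; DESeq2 adjusted p = 0.0595). Apoe UMIs were spread widely, with 22.5% of those in Pf4-low cells from the 10 cells with most, and without the 10 granule-rich cells its difference was -1.47 instead of -1.36 from total UMIs. The urea transporter gene Slc14a1 rose (1.05 ± 0.26, adjusted p = 0.00464), as did Zfpm1. Of 10 stem and multipotent genes 1 rose, the interferon-inducible Ifitm3 (0.77), and 3 fell: Cd34 (-1.67), Eltd1 (-1.89) and Cd27 (-1.26). Cd34, the gene of a protein the sort required, was at 31.3 and 43.5 against 110 and 130 CPM. Ifitm3 lost its call with a minimum of 1000 UMIs (0.51, adjusted p = 0.118).

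Markers of other cells the gate could hold were measured too. Of basophil and mast cell genes 2 of 5 tested fell, Hdc (-2.78), which makes histamine, and Lmo4 (-1.28), and the summed list was at 2436 and 2345 CPM in Pf4-high cells against 3020 and 3435. Lmo4 lost its call with no replicate block (adjusted p = 0.0505), with no filter on low counts (0.104) and with a minimum of 1000 UMIs (0.0815). Of monocyte genes 1 of 5 fell, Cst3 (-0.53), which lost its call with no replicate block (adjusted p = 0.072). By edgeR 0 of 3 dendritic, 0 of 2 lymphoid and 0 of 1 macrophage or stromal genes passed, with 1, 1 and 0 at an unadjusted p under 0.05. DESeq2 gave an adjusted p to 2 of the 3 dendritic genes and called 0. It gave none to the lymphoid and the macrophage or stromal genes, so it could not call them. The eosinophil list had 1 UMI in all. The summed level of the neutrophil list was 2145 and 2306 CPM in Pf4-high cells and 5670 and 7049 in Pf4-low cells, and that of the monocyte list 1169 and 1166 against 1406 and 1904. Their part in the other differences was not tested beyond leaving out the 10 cells above.

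Cell cycle genes gave no call. By edgeR 0 of 16 S phase genes passed (median 0.13, with 2 at an unadjusted p under 0.05). Of 17 genes of G2 and M phase 0 passed (median -0.31, with 13 of 17 below 0 and 5 at an unadjusted p under 0.05). DESeq2 called 0 in either list, with an adjusted p for 13 genes of each. Ube2c was at 757 and 509 CPM against 810 and 924 (-0.45, adjusted p = 0.113) and Cdk1 at 309 and 278 against 415 and 470 (-0.59, adjusted p = 0.101). Cdk1 passed when cells were thinned to 500 UMIs before the split (-0.64, adjusted p = 0.0219). Of 4 interferon-stimulated genes 1 rose, Ifitm3, which was already counted among the stem and multipotent genes. Ly6e fell (-0.53), a call lost with no replicate block (edgeR adjusted p = 0.0623) and with no filter on low counts (0.109). Of the others 0 of 4 immediate early and 0 of 5 cyclin and ploidy genes passed by edgeR (1 each unadjusted), with Ccnd2 (a row joined with CYL2, uncertain) at 0.57. DESeq2 gave an adjusted p to 4 of the cyclin and ploidy genes and called 0. It gave none to the immediate early genes, so it could not call them.

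Divided into 4 groups of 84 cells by Pf4 share, the summed surface glycoprotein and receptor lists went up at each step, and Mpo was lower at each step. The values are a description, scaled by total UMIs only. The summed surface glycoprotein level was 2777, 4200, 5690 and 7928 CPM from the group of lowest to that of highest Pf4 share, and that of the receptor and signalling list 2414, 3430, 4749 and 5897. Itgb3 was at 49.8, 72.7, 274 and 395 CPM and Cd9 at 271, 567, 1182 and 1761. Gp9 was at 199, 494, 442 and 658 CPM. The alpha granule list without Pf4 was at 4400, 4891, 5606 and 5572 CPM. Not every gene climbed at each step: besides Gp9, for example, Clu (116 to 89.6), Tbxas1 (476 to 453) and Nrgn (2492 to 2357 CPM) were lower in a group than in the one before it. Mpo was at 2962, 1126, 168 and 54.8 CPM, and Apoe at 2115, 1904, 1126 and 555. Elane was at 135, 131, 33.6 and 3.65 CPM. For both Apoe and Elane the widest step in CPM lay across the cut, and the widest as a ratio above it. Median UMIs per cell went up along the groups, at 1372, 1514.5, 1873 and 3087, and the part of depth in these levels was not tested.

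**Figure D4:**
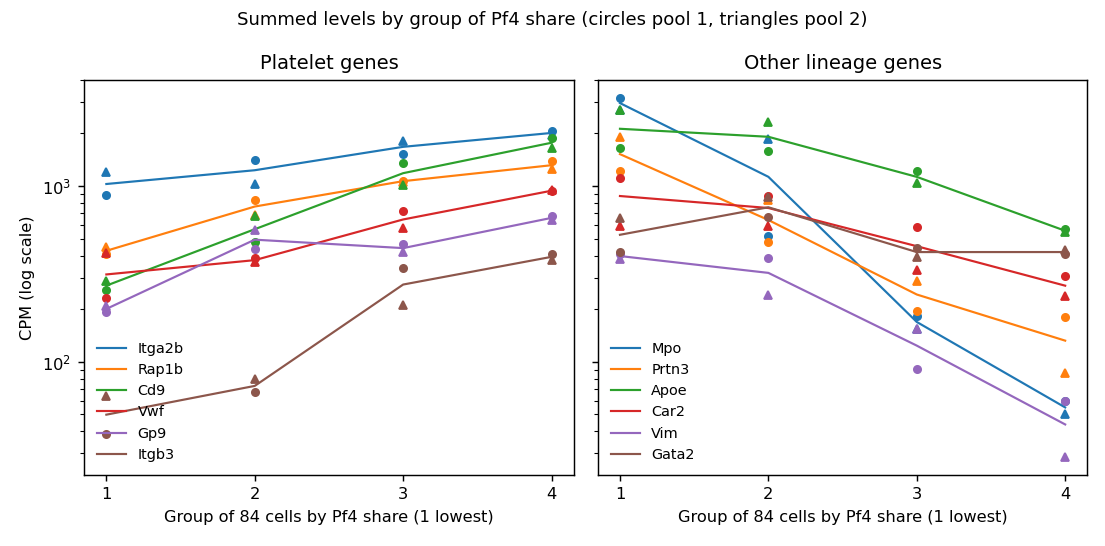
Summed CPM on a log axis (vertical) in 4 groups of 84 cells by Pf4 share (horizontal, 1 lowest), with lines for both pools together, circles for pool 1 and triangles for pool 2. Itgb3 climbs from 49.8 to 395 CPM on the left, and Mpo drops from 2962 to 54.8 on the right.

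Few cells elsewhere in the series reached the Pf4 share of the Pf4-high cells. In unsorted myeloid progenitors, taken from 16 pools where label and well table name the same group, 19 of 2732 cells lay above the cut (0.695%, exact 95% interval 0.419 to 1.08). In the Flt3+ Csf1r+ gate 0 of 380 did, which allows a share of up to 0.789% at 3 counts (exact 95% upper bound 0.966%), and in the Irf8-GFP+ MHCII+ gate 0 of 743, up to 0.404% at 3 counts (exact bound 0.495%). The 19 unsorted cells came from 12 pools with 46956 UMIs in all. Itgb3 was at 319 CPM in them (15 UMIs), Vwf at 681 (32 UMIs) and Cd9 at 937 (44 UMIs), against 6.20, 10.9 and 39.6 in the other unsorted cells. Mpo was at 1661 CPM in these cells, with 78 UMIs in 17 of the 19 and 32 of them in 2 cells, against 7088 in the rest. Free RNA at the level of the wells without a cell would come to 6.29 of these 78 Mpo UMIs. Their Mpo level was above the 107 and 91.3 CPM of the Pf4-high cells of the gate.

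No unsorted pool held 5 cells above the cut, so the same split could not be tested there, and cells with any Pf4 UMI were set against cells with none in the 12 pools with at least 5 such cells. This rule is much weaker: 119 of 2732 unsorted cells held a Pf4 UMI (4.36%, median depth 3101 UMIs), against 16 of 380 in the Flt3+ Csf1r+ gate (4.21%, median depth 2908 UMIs) and 6 of 743 in the Irf8-GFP+ MHCII+ gate (0.808%, 2682 UMIs). The unsorted share is thus close to that of the Flt3+ Csf1r+ gate and above that of the Irf8-GFP+ MHCII+ gate. Whether the Pf4 UMIs of these 2 gates are background was not tested. From the 32 wells without a cell in the unsorted pools, which held 40.8 UMIs on average, free RNA of each pool's own composition would come to 5.01 of the 471 Pf4 UMIs of the unsorted cells. The 16 unsorted pools carry 1 mouse identifier and come from 8 plates and 2 sequencing batches. By edgeR 23 of 4943 genes were higher (0.465%) and 138 lower (2.79%) in cells with Pf4. With total UMIs in place of TMM the split was 34 higher and 104 lower. The median log2 difference over all 4943 genes was -0.06. Their share on each side of 0 was not counted, so the same-sign counts that follow have no background share beside them. Of the 61 genes higher in the gate 39 were tested here and 25 of these had the same sign, and 12 were also called higher (19.7% of the 61 and 54.5% of the 22 called here besides Pf4), among them Cd9 (2.37), Itga2b (2.89; joined row), Rap1b (1.66), Serpine2 (1.45), Tuba8 (2.29), Nrgn (1.74) and Zfpm1 (0.50). Of the 85 lower 82 were tested and 72 had the same sign, and 31 were also called lower (36.5% of the 85 and 22.5% of the 138), including Mpo (-1.46), Ctsg (-1.60), Elane (-1.85), Prtn3 (-1.80), Vim (-1.85), Lgals1 (-1.58) and Cd34. Apoe went the other way, at 0.67 (edgeR adjusted p = 0.00224) in unsorted cells against -1.38 in the gate. Gata2 (0.70) and Rasgrp2 (-0.73) also had the other sign but did not pass, and neither did Rgs10 (0.13), Syk (0.11) and Tln1 (0.02). Of 4 alpha granule genes besides Pf4, 1 was higher and 2 lower (median -0.20). For surface glycoprotein genes it was 2 higher and 1 lower of 4 (median 1.21), and for receptor and signalling genes 1 and 0 of 8 (median 0.12). Car2 (-0.0039) and Klf1 (0.0069) did not pass in unsorted cells. The differences between gate and unsorted cells were not tested.

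Surface intensities recorded at the sort were available for unsorted cells and for 0 wells of the CD41 gate. Over the 12 pools, the pool median of FcgR intensity was 155 ± 105 (SD, n = 12) in cells with a Pf4 UMI and 240 ± 82.0 in cells without, lower in 9 of 12 pools (exact permutation test within pools, two-sided p = 0.0190, adjusted over the 2 proteins 0.0381). For CD34 the values were 103 ± 75.8 and 137 ± 71.9, also lower in 9 of 12 (exact p = 0.0576, adjusted 0.0576). The intensities are in the sorter's own units. Some of the 12 pools share a plate, since the unsorted pools come from 8 plates, while the permutation test treats each pool as independent. The medians of cells with a Pf4 UMI rest on 5 to 21 cells per pool.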

How the data were processed

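UMI counts were deposited unnormalized, for 10368 wells and 27297 gene rows, 2109 of which join several symbols. The reads were mapped to mm9 and demultiplexed with bcl2fastq 2.15.0.4, per the submitters' processing notes, and no source used here names the aligner or counter. CD34 and FcgR intensity values per well are the authors' index sort readings, as deposited. Wells were assigned to pools through the deposited well table, and label and well table agree for both CD41 pools while 18 of 54 pools of the series differ.

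UMIs of the cells of each set were summed within each pool, which gave 4 sums of 125019 to 230370 UMIs. High and low sums of a pool come from the same amplification, so the pool is a block. Sums were compared with edgeR 4.0.16 in R 4.3.3 (TMM, filterByExpr, glmQLFit and glmQLFTest, Benjamini-Hochberg adjustment over all genes tested). The 4 sums leave 1 residual degree of freedom, so the test draws its spread mostly from all genes together. The standard error is the log2 difference over the root of the test's F statistic. DESeq2 1.42.0 was an alternative, with scaling, filter, minimum depth, cut, thinning and pool as the others. The procedure was also run on counts simulated for each sum from the spread that the fit itself had estimated. Those counts hold no single cells and no split by Pf4, so they cannot show the error rate in these data. No doublet caller was run, since wells were recorded as holding 1 cell.

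The members and lists were chosen with earlier results of these data known. Named genes are Pf4, the 15 largest differences in each direction with adjusted p under 0.05, at least 100 CPM in the higher set and one sign in both pools, and, of each list, the members that passed or the 3 most abundant. Members outside this rule are given where a list's count is described. The planned split of unsorted cells at the same cut was not run, since 0 pools held 5 cells above it, and any Pf4 UMI against none took its place after the data were seen. The 44 cells under 500 UMIs were left out. They held 6442 UMIs, of which 0.419% were Pf4.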

Additional observations from a re-analysis of the deposited data

How the results depend on the processing

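Depth limits the gate: with 1 mouse identifier and 2 pools, the 1341 tested genes under 100 CPM in both sets held at most 28 UMIs in Pf4-low cells. DESeq2 size factors, total UMIs and leaving Pf4 out of the table ended the call of 0 of the 66 named genes called. DESeq2 itself gave 6 genes higher and 10 lower, with 14 of the 66 called, 29 not and the rest with no adjusted p. With cells thinned to 500 UMIs before the sums, which leaves fewer genes tested, 12 were higher and 10 lower, and 17 of the 28 named calls it could test ended. No filter on low counts gave 55 lower and ended 11 of the 66. Without the pool pairing (no replicate block) 48 were higher and 56 lower, and 12 of the 66 lost their call. Otherwise 1000 UMIs per cell ended 9 calls, thinning before the split 5, the 84 cells of highest against the 84 of lowest Pf4 share 3 and pool medians 1. The highest against the lowest 84 cells also added edgeR calls for Srgn, Ifitm1 (-1.42, adjusted p = 0.0202) and Fcer1g (1.64, adjusted p = 0.0159). By size, the highest against the lowest 84 cells gave 162 higher and 119 lower, and thinned sums 181 and 225. Leaving out a pool gave 126 to 129 higher and 86 to 130 lower by size: without pool 1 126 and 130, without pool 2 129 and 86. For any Pf4 UMI in unsorted pools, DESeq2 gave 15 higher and 70 lower and 10 cells or more per set 11 and 45, and leaving out a pool gave 18 to 25 and 95 to 158. No named difference past the threshold changed sign where the gene could be fitted, which was 28 of 66 for thinned sums and 56 for the highest against the lowest 84 cells. The causes of these shifts were not tested.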

Other observations

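Some of the remaining calls in the CD41 gate fall into groups that were put together after their values were seen, so they are given as values only. Of 17 tested genes for chaperones and translocon parts of the endoplasmic reticulum, through which secreted and membrane proteins are made, 4 rose in Pf4-high cells and 0 fell, with a median log2 difference of 0.40 and 14 above 0. They were Hsp90b1 (1.01), Dnajb11 (1.05), Dnajc3 (1.12) and Ssr4 (0.80), and the summed level of the 17 was 8740 and 9031 CPM in Pf4-high cells of pools 1 and 2 against 7445 and 7697 in Pf4-low cells. Of 72 genes of the respiratory chain and ATP synthase, 3 rose, Atp5k (0.90), Cox6b1 (0.69) and Uqcr10 (0.68), and 0 fell, with a median of 0.01 and 37 above 0. Over all 3740 genes tested other than Pf4, 61 rose and 85 fell, with 1824 above 0. As a set the 72 genes were thus not shifted from that background.

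Of 20 tested genes of leukocyte adhesion and actin regulation, 12 fell in Pf4-high cells and 1 rose, with 6 above 0, while their summed level was 15532 and 15051 CPM in Pf4-high cells against 13815 and 15669 in Pf4-low cells. Among those that fell were Selplg, the P-selectin ligand (-2.23), Fut7, the enzyme that completes that ligand's sugars (-2.38), Lcp1 (-3.25), Dock2 (-1.40), Rac2 (-0.82) and Coro1a (-0.62). Actb was the member that rose, by 0.42. Selp, the P-selectin gene itself, was higher at 1.68. Sfpi1, which encodes the myeloid factor PU.1, fell (-1.87), and Gpx1, glutathione peroxidase, fell by 0.79 and was among the genes DESeq2 also called. Of 56 ribosomal protein genes 8 fell and 3 rose, all by less than 0.7 on the log2 scale, with a median of -0.05. These families have many near-identical copies, so the rows are uncertain. The summed ribosomal protein level was 132249 and 133136 CPM in Pf4-high against 141042 and 149853 in Pf4-low cells.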
